A study of Mus musculus with 4 samples.

Results

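The 10 genes described here encode the actin isoforms and the proteins that set the length of actin filaments in muscle. They were chosen by name: the actins Acta1, Actc1, Acta2, Actb and Actg1, the filament-severing factor Cfl2, the pointed-end caps Tmod1 and Tmod4, and the leiomodins Lmod2 and Lmod3. Each matched 1 row of the deposited tables, out of 32868 gene names in all. RNA came from the tibialis anterior (a shin muscle made mostly of fast fibres) of C57BL/6 mice at postnatal day 21. The group labelled Nf1-KO (genotype Nf1flox/flox/Myf5+, 2 libraries) was compared with the group labelled Het (Nf1flox/+/Myf5+, 2 libraries). Both groups thus carry the Myf5+ allele and at least 1 floxed copy of Nf1, the gene for the Ras inhibitor neurofibromin, and no library came from mice without a floxed allele. In such crosses Myf5 usually drives Cre recombinase in muscle precursors, but the labels do not spell this out, and they do not say whether the libraries came from separate animals, so p-values measure only the spread between these libraries.

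Thin filaments of the sarcomere are polymers of actin whose barbed ends are anchored at the Z-disc and whose pointed ends face the middle of the sarcomere. Tropomodulins cap the pointed end and stop its growth, whereas leiomodins, their relatives, bind the same end or the filament side and let filaments form or lengthen. Muscle cofilin severs actin filaments and removes subunits, and mutations in ACTA1, CFL2 and LMOD3 cause nemaline myopathy in people.

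Values are RPKM, reads scaled by gene length and by sequencing depth, as the authors deposited them. Library depth, estimated from the steps of low values, came to 36600000 and 58100000 reads for Het, and the Nf1-KO libraries at 47000000 and 51000000 lay between these. Nf1, the targeted gene, was low everywhere: Het had 1.09 and 1.01 RPKM, Nf1-KO had 0.89 and 0.85 RPKM, and the log2 fold change was -0.18 (standard error, SE, 0.057, limma adjusted p 0.041). The levels as deposited give 0.829 times the Het level, and the authors' deposited table gives Nf1 a log2 fold change of -0.38 (adjusted p 0.0026). Fold changes printed here on the log2 scale are of log2(RPKM + 1) after scaling, which shrinks the change of genes near 1 RPKM such as Nf1. These are values of the whole gene, and the floxed part was not measured apart. Genes that define muscle fibres were abundant in all 4 libraries, with Ckm (muscle creatine kinase) between 5562.5 and 5938 RPKM. The labels give no batch.

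Lmod2 rose and Actc1 fell by far the most of the 10 genes. Lmod2 was 2.59-fold higher in Nf1-KO and Actc1 was 0.492 times its Het level in the deposited values. Tmod1 and Acta1 fell less, Actg1, Actb and Lmod3 fell slightly, and Acta2, Cfl2 and Tmod4 rose. All 10 genes passed the low-value filter and the threshold (limma adjusted p under 0.05 over all genes tested), 4 of them higher and 6 lower in Nf1-KO. Of the 10690 genes tested, 24.9% were called higher and 25.4% lower, 50.3% together. With values as deposited and not scaled, 3760 genes were higher and 1883 lower, and the 10 genes split into 4 higher and 5 lower. The groups did not overlap for any of the 10 genes in the scaled values, which was also true of 76.3% of all genes tested, so the sizes of the changes tell more than the calls. The median log2 fold change of the 10 genes was -0.18, against 0.00 over all genes tested, and the median absolute log2 fold change was 0.33 against 0.16. An absolute change larger than that of Lmod2 was seen in 0.954% of the tested genes, and larger than that of Actc1 in 1.61%. The corresponding shares were 8.72% for Tmod1 and 12.3% for Acta1, but 46.0% for Cfl2, 55.6% for Lmod3 and 64.8% for Tmod4, whose changes were of ordinary size in this comparison. All tested genes include low genes, whose changes the pseudocount of 1 makes too small. The 10 genes held at least 11.3 RPKM in every library, so these shares and medians may overstate how unusual their changes were. The 10 genes were also chosen with earlier results of these data known, which limits the same comparison.

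**Figure D1:**
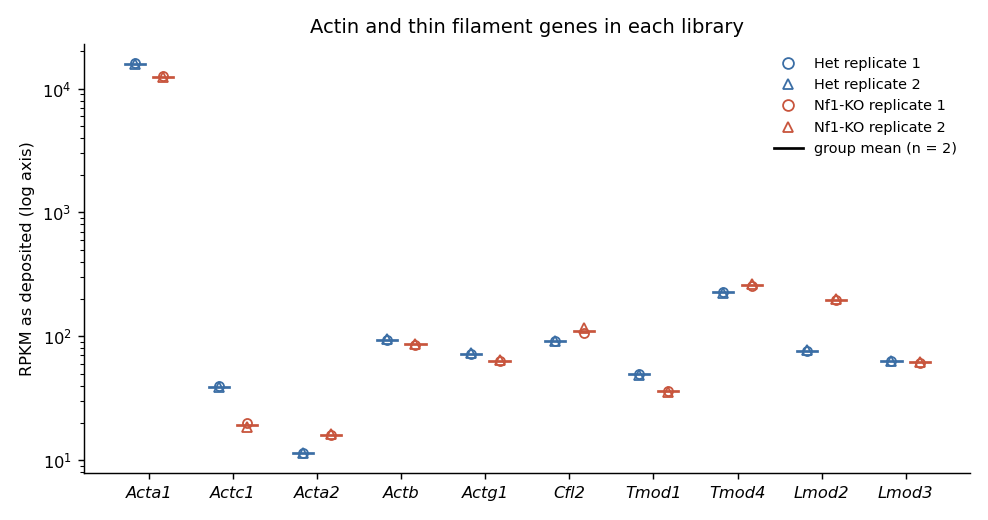
RPKM as deposited (log axis) of each of the 10 genes in each library, with Het in blue, Nf1-KO in red, circles and triangles for replicates 1 and 2, and a bar at the group mean (n = 2). Acta1 lies far above the rest, Lmod2 moves from 76.3 to 197.8 RPKM and Actc1 from 39.2 to 19.3 RPKM.

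**Figure D2:**
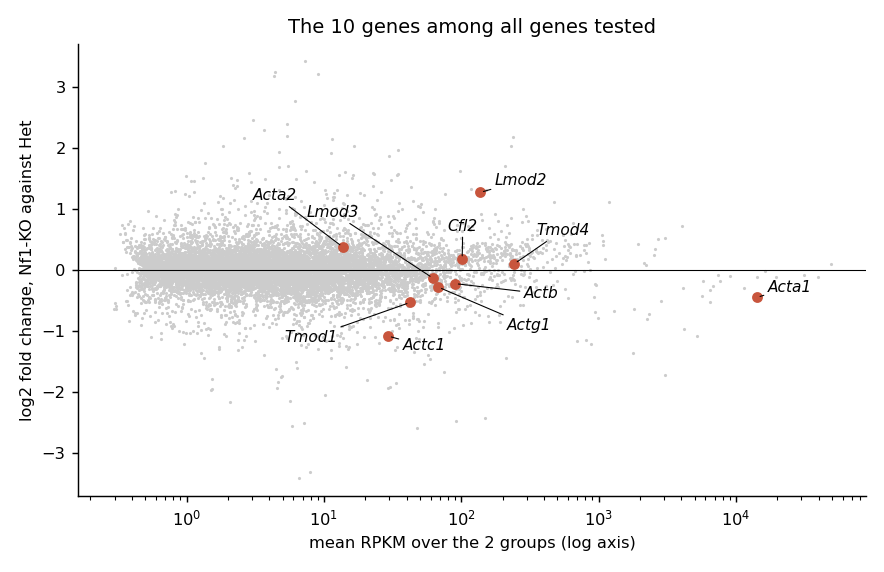
Mean RPKM over the groups (log axis) against the log2 fold change of Nf1-KO against Het for all 10690 genes tested (grey), with the 10 genes in red. Lmod2 lies at 1.27, Actc1 at -1.08 and Tmod4 at 0.10. Their changes were not compared with those of genes of similar level.

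The promoters of the genes that moved most among the actins and leiomodins are printed below because muscle actin promoters are textbook targets of serum response factor (SRF), which binds the CArG box. RefSeq promoter sequences (GRCm38.p6) were at hand for 8 of the 10 genes, all but Actb and Lmod3. Each line runs 5′ to 3′ from 250 bases before the RefSeq start, and stops before any GENCODE exon of the gene within those 250 bases. The Actc1 stretch also lies in the first intron of a longer GENCODE transcript of Actc1. Capitals mark 10-base CArG boxes, matched exactly or with 1 mismatch.
Acta1 (chr8:123894776-123895025, minus strand): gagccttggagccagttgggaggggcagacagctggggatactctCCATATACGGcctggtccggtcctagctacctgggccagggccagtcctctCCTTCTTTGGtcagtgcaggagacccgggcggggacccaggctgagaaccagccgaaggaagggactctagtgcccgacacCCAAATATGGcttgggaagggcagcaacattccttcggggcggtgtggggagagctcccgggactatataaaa
Actc1 (chr2:114052888-114053125, minus strand): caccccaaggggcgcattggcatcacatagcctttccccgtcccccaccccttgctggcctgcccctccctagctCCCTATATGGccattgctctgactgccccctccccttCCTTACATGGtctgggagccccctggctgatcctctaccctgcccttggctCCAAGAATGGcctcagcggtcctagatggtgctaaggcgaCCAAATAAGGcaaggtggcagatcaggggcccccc
Lmod2 (chr6:24597521-24597761, plus strand): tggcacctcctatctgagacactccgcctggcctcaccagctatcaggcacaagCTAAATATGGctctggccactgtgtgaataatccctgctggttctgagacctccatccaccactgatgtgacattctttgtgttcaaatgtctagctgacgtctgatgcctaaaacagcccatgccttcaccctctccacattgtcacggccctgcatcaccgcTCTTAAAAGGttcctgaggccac

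The 250 bases before the start were searched for the CArG box, which reads much the same on both strands. Acta1 held an exact match, CCAAATATGG, beginning 73 bases before the start, and Actc1 held CCAAATAAGG, beginning 47 bases before it. Actg1 held CCATATATGG 90 bases before its start. Acta2 and Lmod2 had matches with 1 mismatch only, among them CCCTATATGG at 84 bases in Acta2 and CTAAATATGG at 196 bases in Lmod2. Cfl2, Tmod1 and Tmod4 had neither in this window. The Tmod1 window lies wholly past the GENCODE start of the gene, and only 33 bases of the Acta2 window lie before its GENCODE start, so the Acta2 matches lie inside the gene as GENCODE draws it. An exact match was present in 1.47% of the 32851 promoters searched, and a match with at most 1 mismatch in 18.6%. These matches describe the sequence and were not measured as bound sites.

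Of the sarcomeric actins, Acta1, the actin of mature skeletal muscle, made up almost all of the actin RNA. The Het libraries held 15930.4 and 15803 RPKM, the Nf1-KO libraries 12516 and 12305 RPKM. Every Nf1-KO value lay below every Het value, and the gap between the groups was far wider than that within them. The group means were 15867 ± 90.2 and 12411 ± 149 RPKM (SD, n = 2), and the scaled log2 fold change was -0.45 (SE 0.015, limma adjusted p 4.0e-06). Acta1 (chromosome 8, 123891769 to 123894751, GRCm38) was the seventh most abundant name in the tables. Of the RPKM summed over names, each by its most abundant copy only, Acta1 held 3.21% in Het and 2.45% in Nf1-KO. The 5 actins together summed to 16145 and 16021 RPKM in Het and to 12701 and 12490 RPKM in Nf1-KO, so that their sum followed Acta1.

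Most of the listed fibre markers also fell. Of 8 fibre markers, 7 were lower and Des (desmin) was higher, against 25.4% and 24.9% of all tested genes, and the median log2 fold change was -0.53. They summed to 37981 and 38146 RPKM in Het and to 27982 and 27946 RPKM in Nf1-KO. The list holds no gene particular to slow fibres, so this sum does not describe fibre RNA as a whole. Pvalb and Myh4, genes of fast fibres, fell from 4619 to 1493 and from 6891 to 3468 RPKM. On the log2 scale they fell by 1.72 and 1.08. Casq1, the calcium store protein calsequestrin, fell from 1096 to 527.4 RPKM. Ckm fell by 0.17 on the log2 scale, and Acta1 with -0.45 lay between Ckm and Myh4. The part of the fibre markers in the fall of Acta1 was not tested.

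Actc1, the main actin of the heart and of fetal skeletal muscle, which Acta1 replaces after birth, fell more steeply. It held 39.3 and 39.1 RPKM in Het and 19.98 and 18.58 RPKM in Nf1-KO. Both Nf1-KO libraries were near the same low level and both Het libraries near the same high level. The scaled log2 fold change was -1.08 (SE 0.039, limma adjusted p 5.5e-06). Measured within each library, Actc1 was 0.246% and 0.247% of the sarcomeric actin RPKM (Acta1 plus Actc1) in Het and 0.159% and 0.151% in Nf1-KO, a ratio that needs no scaling between libraries. Actc1 (chromosome 2, 114047282 to 114053548) therefore fell relative to Acta1 as well as in level.

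Most other tested genes of developing or regenerating fibres rose while Actc1 fell. Of 11 such genes, 8 could be tested, and 6 were higher, 1 lower and 1 did not pass (24.9% and 25.4% of all tested genes were higher and lower). Their median log2 fold change was 0.43. When every library had to reach 1 RPKM, 4 genes of this list were called in place of 7. Myog, a transcription factor of muscle differentiation, rose from 1.08 ± 0.219 to 4.86 ± 0.467 RPKM (SD, n = 2), which is 4.52-fold as deposited and 1.44 on the log2(RPKM + 1) scale. Tnnt2, the cardiac and embryonic troponin T, was 3.50-fold and Chrna1, the alpha subunit of the acetylcholine receptor, 2.96-fold higher as deposited (1.24 and 1.21 on the log2(RPKM + 1) scale). The lower gene was Myh8, the perinatal myosin heavy chain, which fell by 0.51. Cardiac muscle markers were read beside Actc1. Of 6, Myl7, Nkx2-5 and Tbx5 were listed at 0 in all libraries, but so was Arpc1a, an Arp2/3 subunit in wide use, so a listed 0 is not read as absence here. The 6 summed to 1.2 RPKM in each Het library and to 2.5 and 2.4 RPKM in the Nf1-KO libraries. Most of that was Myh6, at 0.99 and 1.01 RPKM in Het and 2.29 and 2.13 RPKM in Nf1-KO, which rose (0.63 on the log2(RPKM + 1) scale) while Actc1 fell.

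Acta2, the actin of smooth muscle and of activated fibroblasts, was the only actin that rose. It held 11.4 and 11.3 RPKM in Het and 16.03 and 16.13 RPKM in Nf1-KO. The replicates almost coincided in each group. The scaled log2 fold change was 0.38 (SE 0.031, limma adjusted p 1.8e-04). Acta2 was 0.0717% and 0.0716% of the Acta1 RPKM in Het and 0.128% and 0.131% in Nf1-KO. Acta2 lies on chromosome 19 from 34241090 to 34255590.

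Markers of the cells that make Acta2 were read beside it. Smooth muscle and pericyte markers (9 genes) summed to 101.8 and 102.5 RPKM in Het and to 124.2 and 124.9 RPKM in Nf1-KO, of which Rgs5 alone held 52.5 and 54.2 against 70.6 and 71.2 RPKM. Of 7 tested, 3 were higher and 2 lower, against 24.9% and 25.4% of all tested genes. The higher genes were Rgs5, Notch3 and Smtn, by 0.31, 0.21 and 0.19 on the log2 scale. The lower genes were Lmod1, the smooth muscle leiomodin, which fell by 0.59, and Tagln, which fell by 0.16. The myosin heavy chain of smooth muscle, Myh11, was 5.08 and 4.94 RPKM in Het against 5.84 and 5.94 RPKM in Nf1-KO and did not pass (adjusted p 0.059). Cnn1 and Actg2 were under 0.6 RPKM in every library and were not tested. With values as deposited and not scaled, 4 smooth muscle markers were higher and 1 lower. All 6 fibroblast markers were higher, against 24.9% of all tested genes. They summed to 92.5 and 90.3 RPKM in Het and to 142.2 and 142.9 RPKM in Nf1-KO. Col1a1 and Col1a2, the chains of type I collagen, rose by 1.57 and 1.06, and Col3a1 by 0.41 on the log2 scale. In whole muscle, a change in the number of cells of a type and a change in RNA per cell cannot be told apart, and the part of either in the level of Acta2 was not tested.

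The cytoplasmic actins fell together and by little. Actb held 93.0 and 94.7 RPKM in Het and 85.5 and 86.1 RPKM in Nf1-KO. Its scaled log2 fold change was -0.22 (SE 0.022, limma adjusted p 3.5e-04). Actg1 held 71.4 and 73.5 RPKM in Het and 63.4 and 63.8 RPKM in Nf1-KO. Its scaled log2 fold change was -0.28 (SE 0.025, limma adjusted p 2.3e-04). Actg1 made up 43.6 ± 0.195% of their sum in Het and 42.6 ± 0.0128% in Nf1-KO (SD, n = 2), so the balance of this pair moved little.

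Similarity between genes could affect these values, since how the counting treated reads with several matches is not given in the sources used here. Among the coding sequences, Acta1 and Actc1 were identical at 86.3% of bases, Acta1 and Acta2 at 85.4%, and Actb and Actg1 at 88.6%. Stretches of 50 bases were compared with the GENCODE M21 transcripts of all other genes. Actc1, Tmod4, Lmod2 and Lmod3 shared none, Acta2 shared 0.352%, Cfl2 1.18% and Acta1 2.22% of their stretches. The share was 14.2% for Actb, most of it with Lrrc58 (5.85 and 6.14 RPKM in Het, 6.04 and 6.35 RPKM in Nf1-KO), and 56.7% for Actg1, most of it with the predicted gene Gm12715. The levels of Actb (chromosome 5, 142903115 to 142906754) and Actg1 (chromosome 11, 120345690 to 120348542) are therefore less certain. Tmod1 shared 39.8%, all of them with Tstd2, which overlaps it on the other strand. Some of these stretches also occur in further genes, 685 genes in all with Tstd2. The level of Tmod1 is therefore also less certain. Tstd2 held 1.20 and 1.36 RPKM in Het and 1.35 and 1.29 RPKM in Nf1-KO, and it did not pass (adjusted p 0.74).

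Cfl2, the muscle isoform of cofilin, rose by a small amount, and its Nf1-KO libraries had the highest coefficient of variation of the 10 genes (5.61%). It held 92.2 and 92.0 RPKM in Het and 106.7 and 115.5 RPKM in Nf1-KO. The Nf1-KO libraries stood apart from each other, and both lay above the Het libraries. Scaled, it changed by 0.17 on the log2 scale (SE 0.037, 95% interval 0.08 to 0.26, limma adjusted p 0.0097). Without Het replicate 1 the change was 0.17 and the adjusted p 0.056, and with no filter on low genes they were 0.16 and 0.082, so the call was lost in both. Cfl1, the cofilin of other tissues, was 19.2 and 20.1 RPKM in Het and 20.01 and 19.89 RPKM in Nf1-KO and did not pass (adjusted p 0.15). Cfl2 was 82.4 ± 0.529% of the cofilin RPKM in Het and 84.8 ± 0.780% in Nf1-KO (SD, n = 2).

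The tropomodulins moved in opposite directions. Tmod1, the form shared with heart and red cells, held 49.5 and 48.9 RPKM in Het and 36.4 and 35.7 RPKM in Nf1-KO. The scaled log2 fold change was -0.53 (SE 0.025, limma adjusted p 1.7e-05). Tmod4, the form found mainly in skeletal muscle, was more abundant, at 228.0 and 225.3 RPKM in Het and 256.0 and 263.6 RPKM in Nf1-KO. Scaled, it changed by 0.10 on the log2 scale (SE 0.021, 95% interval 0.05 to 0.15, limma adjusted p 0.0079). This call was lost without a variance trend (0.10, adjusted p 0.077) and with no filter on low genes (0.088, adjusted p 0.053). Tmod1 made up 17.8% of the RPKM of the pair in each Het library and 12.4% and 11.9% in the Nf1-KO libraries, while the sum of the pair moved only from 277.5 and 274.2 to 292.5 and 299.3 RPKM.

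Lmod2 showed the largest change of the 10 genes. It held 75.4 and 77.2 RPKM in Het and 196.3 and 199.2 RPKM in Nf1-KO. The groups stood far apart, and the replicates of each group lay close together. Scaled, it changed by 1.27 on the log2 scale (SE 0.022, 95% interval 1.22 to 1.32, limma adjusted p 4.6e-07). Lmod2 (chromosome 6, 24597762 to 24605414) is the leiomodin known best from heart, where it is needed for thin filaments of full length. Lmod3, the leiomodin of skeletal muscle that is lost in a severe nemaline myopathy, changed little. It held 63.3 and 63.4 RPKM in Het and 61.2 and 61.8 RPKM in Nf1-KO. Its scaled log2 fold change was -0.13 (SE 0.022, limma adjusted p 0.0031). In the values as deposited and not scaled it was -0.04 with an adjusted p of 0.15.

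**Figure D3:**
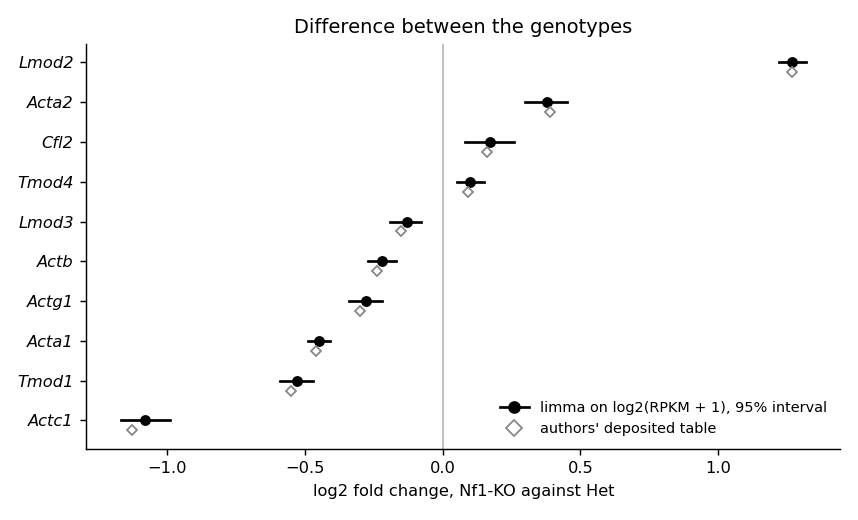
Log2 fold change of Nf1-KO against Het for the 10 genes, ordered by size. Black points and lines are the limma estimate on log2(RPKM + 1) with its 95% interval, and grey diamonds are the values of the authors' deposited table. Both place Actc1 lowest and Lmod2 highest.

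The make-up of the pointed-end proteins thus differed between the groups in each library. Lmod2 was 54.4% and 54.9% of the leiomodin RPKM (Lmod2 plus Lmod3) in Het and 76.2% and 76.3% in Nf1-KO. The summed leiomodins rose from 138.7 and 140.6 RPKM to 257.5 and 261.1 RPKM. Per unit of tropomodulin RPKM (Tmod1 plus Tmod4), leiomodin RPKM was 0.506 ± 0.00919 in Het and 0.876 ± 0.00588 in Nf1-KO (SD, n = 2). Acta1 per Neb RPKM was 36.1 ± 1.11 in Het and 31.8 ± 0.960 in Nf1-KO. For such a ratio the smallest p of an exact permutation test is 0.333 with 2 libraries a group, so the ratios are given without a test. They were computed on RNA and do not measure protein or filament length.

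**Figure D4:**
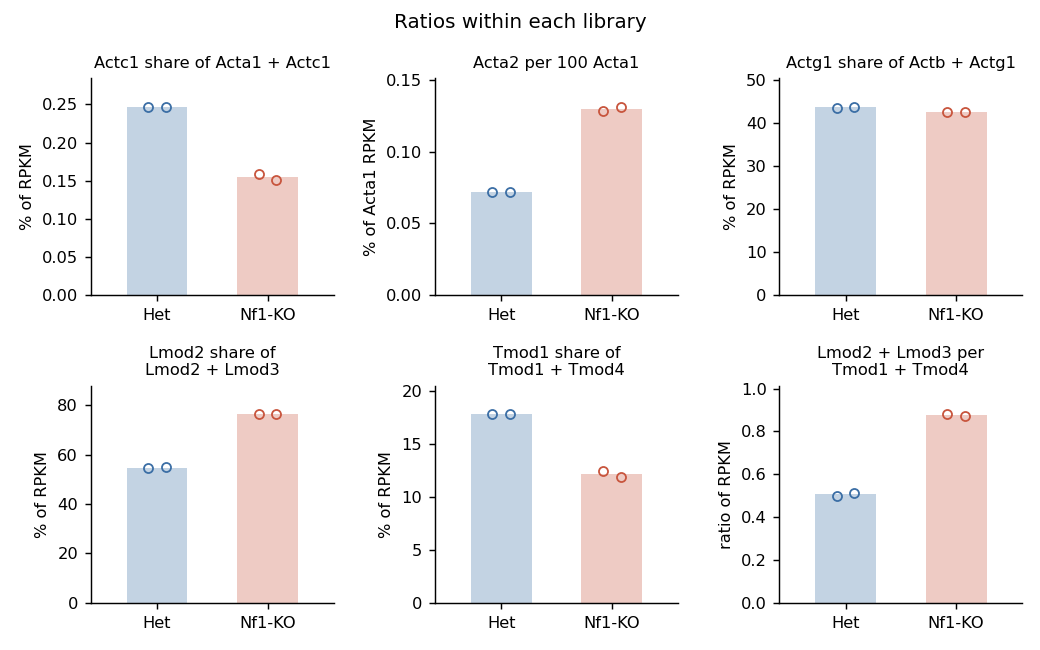
Ratios of RPKM within each library, with the bar at the group mean and circles at the 2 libraries of each group. The share of Lmod2 among leiomodins rises from 54.6% to 76.3%, the shares of Actc1 and Tmod1 fall, and the share of Actg1 among cytoplasmic actins stays between 42.6% and 43.7%.

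The order of levels changed with Lmod2. In Het, the order was Acta1, Tmod4, Actb, Cfl2, Lmod2, Actg1, Lmod3, Tmod1, Actc1 and Acta2. In Nf1-KO, Lmod2 stood in place 3 instead of 5, behind Acta1 and Tmod4, and Cfl2 stood above Actb. Neighbours in either order did not overlap between libraries, but Actb and Cfl2 in Het (at least 93.0 against at most 92.2 RPKM) and Actg1 and Lmod3 in Nf1-KO (at least 63.4 against at most 61.8 RPKM) were close. RPKM are per length, and the gene lengths behind them were not used here.

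The authors' deposited table, which was made from the same libraries, gave all 10 genes the same direction and an adjusted p under 0.05. It called 31.6% of its 13985 genes. The authors' deposited table put Lmod2 at 1.27 (standard error 0.030), Actc1 at -1.13 (0.069), Tmod1 at -0.55 (0.038) and Acta1 at -0.46 (0.015). Its mean normalised read counts show the depth behind each value, from 1665 for Acta2 and 1954 for Actc1 to 12584 for Lmod2 and 1059056 for Acta1 in the authors' deposited table.

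Other proteins of the filament ends were counted next. Of 12 listed genes for other caps, nebulin and the Kelch proteins of nemaline myopathy, 10 could be tested, 3 were higher and 5 lower (24.9% and 25.4% of all tested genes), and the median log2 fold change was -0.12. Lmod1 fell by 0.59. Capza2, an alpha subunit of the CapZ complex that caps barbed ends, fell from 45.2 ± 0.431 to 36.02 ± 0.516 RPKM (SD, n = 2), or -0.41 on the log2 scale. Kbtbd13 rose by 0.28. Klhl40, which stabilises LMOD3 protein, rose by 0.15 and Klhl41 by 0.12. Neb encodes nebulin, the giant protein that runs along the thin filament. It was 432.3 and 447.9 RPKM in Het and 402.7 and 379.4 RPKM in Nf1-KO, a log2 fold change of -0.26 (limma adjusted p 0.0011).

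Genes of actin turnover included both directions. Of 18 tested, 2 were higher, 5 lower and 11 not called, where 24.9% and 25.4% of all tested genes were higher and lower. Their median log2 fold change was -0.02. With values as deposited and not scaled, 5 were higher and 4 lower. Pfn1, or profilin 1, which loads actin monomers for growth, fell from 114.6 ± 2.48 to 78.5 ± 1.25 RPKM (SD, n = 2), or -0.63 on the log2 scale. Pfn2 fell by 0.30 and Limk2, a kinase that inactivates cofilin, by 0.31.

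Of 13 tested genes that nucleate actin filaments, 4 were lower and 9 did not pass, where 25.4% of all tested genes were lower, and the median log2 fold change was -0.01. With values as deposited and not scaled, 4 were higher and 4 lower. The falls were led by formins, which start and elongate unbranched filaments. Fhod1 fell from 10.1 ± 0.0495 to 5.42 ± 0.120 RPKM (SD, n = 2), or -0.87 on the log2 scale. Fhod3, a formin of the sarcomere, fell from 12.2 ± 0.361 to 7.28 ± 0.156 RPKM, or -0.75 on the log2 scale. Arpc5l, a subunit of the branching Arp2/3 complex, fell by 0.43.

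The SRF list holds SRF, its cofactors and several of its targets other than the 10 genes. Actin monomers hold the cofactor MRTF-A, the product of Mkl1, in the cytoplasm, and the striated muscle protein STARS, the product of Abra, binds actin and releases it. Of 12 tested, 5 were higher and 5 lower (24.9% and 25.4% of all tested genes), and the median log2 fold change was -0.11. Mkl1 fell from 9.71 and 9.73 to 4.10 and 3.64 RPKM, or -1.22 on the log2 scale (SE 0.055, limma adjusted p 1.4e-05). Abra rose from 80.0 and 81.1 to 142.3 and 144.0 RPKM, or 0.73 on the log2 scale (SE 0.021, limma adjusted p 2.5e-06). Fhl2, a LIM-domain protein that binds SRF, rose from 0.285 to 1.33 RPKM, which is 4.67-fold as deposited and 0.82 on the log2(RPKM + 1) scale. Srf itself fell by 0.34.

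**Figure D5:**
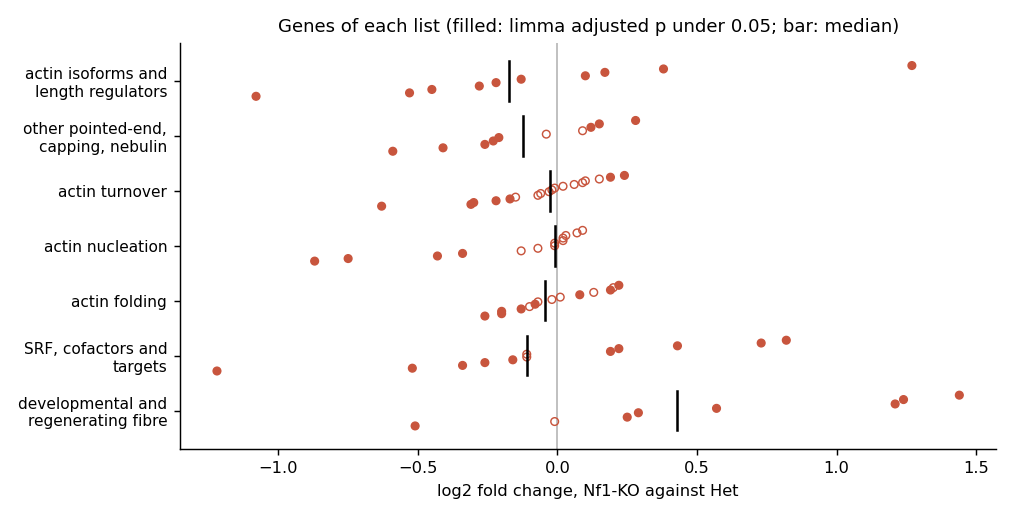
Log2 fold change of Nf1-KO against Het for the tested genes of each list, with filled points for a limma adjusted p under 0.05 and a bar at the median. The 10 actin and thin filament genes run from -1.08 to 1.27, a wider range than the turnover, nucleation and folding lists.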

How the data were processed

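Total RNA of 4 tibialis anterior libraries was sequenced from TruSeq libraries, per the labels' protocols. Per the submitters' processing notes, STAR 2.4.2a, DESeq2 and the build mm9 were used, and the counting program, the annotation and the use of strand are not given in the sources used here. The authors deposited 1 value per row for 34682 rows of each library, read here as RPKM from the values: the ratio of the mean normalised count to the value rose with transcript length (log-log slope 0.95 over 8482 genes). The authors' deposited table gives per gene a signal (mean read count divided by size factors), a log2 fold change with its standard error, a test score, and a p-value with its adjusted form, per the file headers.

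The 33 rows named by a number were left out, and 1781 rows were marked as copies, and each name was represented by its most abundant copy (32868 names). Of the rows, 44.7% were listed at 0 in all libraries. The 10690 genes that reached 0.5 RPKM in 2 or more libraries entered the test: limma 3.58.1 (R 4.3.3), with its trended variance prior and no covariate, applied to log2(RPKM + 1). The pseudocount of 1 makes the fold changes of low genes too small. Scaling used trimmed means without weights, dropping 30% of the log ratios and 5% of the abundances per tail; the factors were 0.969, 0.967, 1.03 and 1.03. Tests were two-sided, with Benjamini-Hochberg adjustment over all tested genes. Levels, means and SD are of RPKM as deposited. The code of the fit was tested on simulated data with known changes and an assumed spread. Far fewer genes changed there than were called here, so that test does not check the scaling or the share of calls in these data. Depth was estimated by searching for the number of reads that brings low values of genes under 400 bases, up to 12 reads, closest to whole reads. Positions are GENCODE M21 (GRCm38), not the authors' build.

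The 10 genes and the gene lists (filament ends, turnover, nucleation, folding, SRF, developmental fibre, and markers of fibre, smooth muscle, fibroblast, endothelial, immune, satellite and cardiac cells) were chosen with earlier results of these data known. From each list the 3 genes with the largest change that passed the threshold with at least 1 RPKM in a group are named, with Neb; others named were chosen after their values were seen. So were the ratios of Lmod2 to Lmod3, Tmod1 to Tmod4, Acta2 to Acta1 and Acta1 to Neb.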

Additional observations from a re-analysis of the deposited data

How the results depend on the processing

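Of 140 values of the 10 genes under 14 alternatives, 135 kept their direction and their side of the threshold, 5 kept their direction and lost the call, and none reversed. With no filter, where 18959 genes were tested, Cfl2 (0.16, adjusted p 0.082) and Tmod4 (0.088, 0.053) lost their calls, so 2 genes were called higher in place of 4, and the folding list had 5 genes called in place of 8. Without a variance trend, Tmod4 (0.10, 0.077) lost its call and the folding list had 5 called. Unscaled, Lmod3 (-0.042, 0.15) lost its call and 8 nucleation genes were called in place of 4. When every library had to reach 1 RPKM, the developmental list had 4 called in place of 7, since fewer genes were tested. For the other changes the cause was not tested. Over all alternatives, the log2 fold change ran from 1.25 to 1.36 for Lmod2 and from -1.12 to -0.99 for Actc1. Leaving out each library in turn, Cfl2 ran from 0.13 to 0.24 and lost its call without Het replicate 1, and the folding list had 5 to 8 genes called, with 5 without Het replicate 1. Unscaled values shifted the median of all tested genes by 0.07, with 3760 genes higher and 1883 lower.

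The labels do not say whether libraries that share a replicate number are linked. Their deviations from the group means correlated at -0.018 over genes. With 2 libraries a group, this cannot exclude a link. The replicate block gave 5229 called genes in place of 5372, and all 10 genes kept their calls, with Lmod2 at 1.27 and Actc1 at -1.08.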

Other observations

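Genes of the chaperonin CCT and prefoldin, which fold newly made actin, included both directions. Of 14 genes tested, 3 were higher and 5 lower, where 24.9% and 25.4% of all tested genes were higher and lower. Their median was -0.05 on the log2 scale. With values as deposited and not scaled, 6 were higher and 1 lower. Cct6a fell by 0.26 and Cct3 by 0.20, and Cct4 rose by 0.22 on the log2 scale. Cct6a held 36.4 and 38.4 RPKM in Het and 33.9 and 32.5 RPKM in Nf1-KO, and Cct4 held 25.7 and 25.1 against 31.0 and 32.4 RPKM.

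Markers of further cell types were summed in the same way, as deposited, while the calls are of scaled values. Of all tested genes, 24.9% were called higher and 25.4% lower. The 6 endothelial genes summed to 78.6 and 79.0 RPKM in Het and to 84.5 and 83.3 RPKM in Nf1-KO. After scaling, 2 of 6 tested were higher and 2 lower, and their median log2 fold change was -0.06. With values not scaled, 3 were higher and 1 lower. Kdr fell by 0.25 and Tie1 by 0.12, and Tek rose by 0.15 on the log2 scale. The 6 immune cell genes summed to 1.5 and 1.8 RPKM in Het and to 4.1 and 3.7 RPKM in Nf1-KO, with Adgre1 listed at 0 in all libraries and both tested genes, Cd68 and Csf1r, higher. The 5 satellite cell genes summed to 8.2 and 8.0 RPKM in Het and to 9.2 and 9.1 RPKM in Nf1-KO, with 1 of 3 tested, Vcam1, higher.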
